A study of Mus musculus with 8 samples.

Results

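The collagen genes of the mouse were followed in 8 whole pancreases profiled by sequencing of poly(A) RNA. Members were the genes whose symbol has the form Col, a number, a and a number, and 43 of the 36432 genes in the tables met that rule. They comprised 11 fibrillar, 8 basement membrane and 24 other collagens. All 8 mice carried Ptf1a-Cre +/KI, a Cre recombinase knocked in at Ptf1a, were 6 to 8 weeks old and were of mixed strain. The 4 controls carried no further allele in the labels, and the other 4 mice were also Gata6 lox/lox, so that Gata6, a zinc finger transcription factor, was targeted in the pancreas. Ptf1a is active in pancreatic progenitors and acinar cells, so the stromal cells that make most collagen are not those the driver targets. The comparison asks how gene expression in the adult pancreas differs with this genotype. The labels name 8 separate mice by title only, and p-values measure the spread between these samples.

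Collagens are secreted proteins of 3 alpha chains wound around each other, with a glycine at intervals of 3 residues so that the chains can pack closely. Fibrillar collagens have a long unbroken helix and assemble into the fibrils of the stroma, made in the pancreas mainly by fibroblasts and stellate cells. Collagen IV has a helix with interruptions and forms the network of basement membranes around acini, ducts, islets and vessels. The remaining collagens form beaded filaments, bind to fibrils, anchor epithelia or span the cell membrane. Chains are hydroxylated and folded in the endoplasmic reticulum, trimmed outside the cell and then crosslinked.

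The spacing of glycine codons, which read GGN, sets the fibrillar class apart from the other 2. It is illustrated by 30-codon stretches of the coding sequences of GENCODE M21 transcripts. For the fibrillar chains Col1a1 (codons 468 to 497) and Col3a1 (codons 464 to 493) the stretch lies inside the longest run. For the collagen IV chains Col4a1 (codons 1338 to 1367) and Col4a2 (codons 960 to 989) it crosses the end of that run. Capitals mark glycine codons that belong to a run of at least 5 at intervals of 3 codons.
Col1a1: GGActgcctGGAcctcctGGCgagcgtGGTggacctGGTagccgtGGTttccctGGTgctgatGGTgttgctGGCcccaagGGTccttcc
Col3a1: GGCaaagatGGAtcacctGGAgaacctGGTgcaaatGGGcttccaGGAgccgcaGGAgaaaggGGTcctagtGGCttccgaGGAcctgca
Col4a1: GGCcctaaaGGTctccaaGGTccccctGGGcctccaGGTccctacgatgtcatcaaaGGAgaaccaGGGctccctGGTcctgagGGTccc
Col4a2: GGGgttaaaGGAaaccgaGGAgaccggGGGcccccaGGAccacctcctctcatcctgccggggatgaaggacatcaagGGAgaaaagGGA
The stretches of Col1a1 and Col3a1 each hold 10 such codons without a break, whereas those of Col4a1 and Col4a2 hold 9 and 7. These counts follow from where the stretches were placed and do not compare the classes. Over all 43 members the longest run was 216 to 344 triplets in fibrillar collagens (median 338), with 2 or 3 runs of at least 5 triplets per chain. Basement membrane collagens had a longest run of 30 to 66 triplets (median 41) and 11 to 27 runs. In the other collagens the longest run was 28 to 113 triplets (median 54), broken into 2 to 21 runs. In both measures their range overlapped that of the basement membrane collagens. Col7a1, the anchoring fibril chain, had 20 runs, closer in number to collagen IV than to Col6a1 of the beaded filaments with 3.

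**Figure D1:**
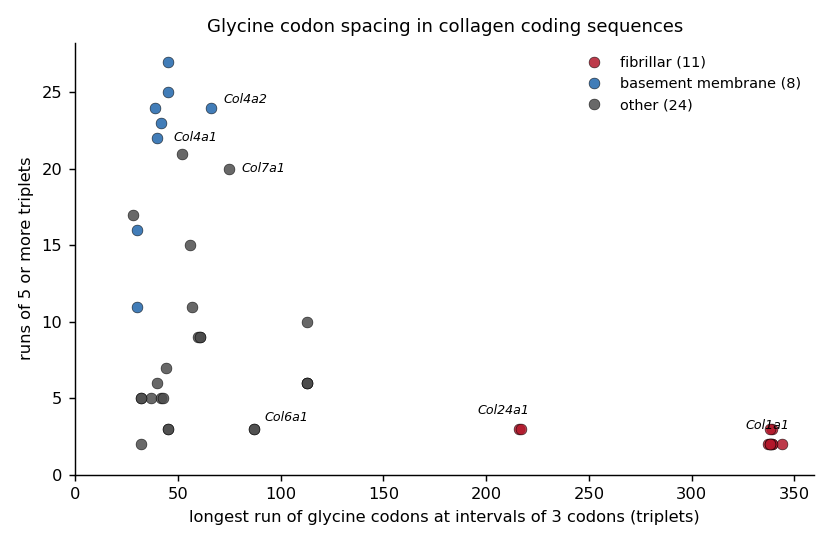
Each point is 1 of the 43 collagen genes, with the length of its longest run of glycine codons at intervals of 3 codons (triplets) on the horizontal axis and the number of runs of at least 5 triplets on the vertical axis. The 11 fibrillar collagens lie at 216 triplets or more with 2 or 3 runs, and no other collagen passes 113.

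Promoters are shown for Col3a1 and Col1a2, the fibrillar chains of highest level, and for the head-to-head pair Col4a1 and Col4a2 because both chains share a start region. They are RefSeq windows of 300 bases, from 250 before to 50 after the start site, on GRCm38.p6, another build than the mm9 of the expression tables. The windows are Col3a1 at chr1:45311288-45311587 (plus strand), Col1a2 at chr6:4505368-4505667 (plus strand), Col4a1 at chr8:11312777-11313076 (minus strand) and Col4a2 at chr8:11312555-11312854 (plus strand). Capitals mark matches on either strand to the GATA word AGATAA, which may begin with T and may end with G, to the CCAAT box, to the TATA word TATAAA or to the Sp1 word GGGCGG.
Col3a1: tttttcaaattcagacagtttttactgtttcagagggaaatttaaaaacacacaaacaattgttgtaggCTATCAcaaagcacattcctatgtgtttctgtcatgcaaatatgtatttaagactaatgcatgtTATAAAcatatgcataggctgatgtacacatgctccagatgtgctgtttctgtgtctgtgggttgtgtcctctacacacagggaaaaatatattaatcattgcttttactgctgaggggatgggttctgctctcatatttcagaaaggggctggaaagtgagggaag
Col1a2: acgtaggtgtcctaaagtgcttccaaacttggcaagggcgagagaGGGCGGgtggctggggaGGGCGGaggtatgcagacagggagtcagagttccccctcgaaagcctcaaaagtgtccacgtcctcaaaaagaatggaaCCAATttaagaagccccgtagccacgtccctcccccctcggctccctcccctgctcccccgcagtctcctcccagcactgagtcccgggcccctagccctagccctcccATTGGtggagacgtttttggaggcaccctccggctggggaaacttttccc
Col4a1: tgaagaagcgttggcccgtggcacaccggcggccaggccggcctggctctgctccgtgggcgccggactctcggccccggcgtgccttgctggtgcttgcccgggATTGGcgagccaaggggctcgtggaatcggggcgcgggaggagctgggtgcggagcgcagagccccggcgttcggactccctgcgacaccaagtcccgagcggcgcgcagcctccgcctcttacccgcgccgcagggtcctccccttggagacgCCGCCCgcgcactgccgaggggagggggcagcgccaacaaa
Col4a2: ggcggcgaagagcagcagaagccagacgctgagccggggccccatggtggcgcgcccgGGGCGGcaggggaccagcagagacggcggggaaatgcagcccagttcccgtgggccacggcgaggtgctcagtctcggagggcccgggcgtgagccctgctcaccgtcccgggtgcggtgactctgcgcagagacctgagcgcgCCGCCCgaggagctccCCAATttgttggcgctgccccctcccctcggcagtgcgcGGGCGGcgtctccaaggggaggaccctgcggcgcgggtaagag
The start sites of Col4a1 and Col4a2 lie 21 bases apart on opposite strands, and the windows share 78 bases. The Col3a1 window holds 1 GATA word and 1 TATAAA, and the Col1a2 window holds 2 CCAAT and 2 Sp1 words. Windows were found for 35 members, 38 windows in all, and for 16 of the 19 tested members, 18 windows. Col1a1, Col5a2 and Col14a1 had no entry. A GATA word stood in 6 of 38 collagen windows and in 1 of the 18 windows of tested members, that of Col3a1, against 29.8% of 32851 mouse promoters. GGGCGG stood in 23 of 38 and 13 of 18, against 35.7%, and CCAAT in 13 of 38 and 8 of 18, against 37.4%. TATAAA stood in 5 of 38 and 1 of 18, against 13.6%. The collagen windows had a median GC content of 59.8%, against 52.7% over all promoters. A match is a description of letters only, and some matches overlap.

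Levels are rescaled FPKM, that is, deposited FPKM over 100000, because the deposited values were not of the usual size. This constant leaves differences between libraries as they were. The deposited FPKM summed to 1.42e+11 to 1.86e+11 in the controls. In the libraries labelled Gata6 lox/lox, numbered 1 to 4, they summed to 2.34e+10, 8.28e+10, 6.80e+10 and 1.30e+11, lowest in 1 and 3. FPKM is per transcript length, so levels can be set side by side between genes. Fragments implied by the deposited intervals, summed over the genes that no library lists with the status HIDATA, numbered 4815821 to 7432061 per library. Titles began with BKD for control 1 and labelled libraries 1, 3 and 4, which all had the Y-linked Eif2s3y at 5.34 or more. The other titles began with ASK (controls 2 to 4) or BSH (labelled library 2), and these libraries had Xist at 17.3 or more. Prefix and sex cannot be told apart, and both overlapped in part with genotype. The targeted gene did not check the label. Gata6 stood at 2.76, 2.12, 2.62 and 2.45 in controls 1 to 4 and at 4.81, 5.12, 4.90 and 4.12 in the 4 libraries labelled Gata6 lox/lox, here labelled libraries 1 to 4. It rose by 0.72 on the log2 scale (SE 0.11, limma Benjamini-Hochberg adjusted p = 0.0443; exact two-sided permutation p = 0.0286, the smallest that 70 splits can give). The call held without labelled library 4 (adjusted p = 0.0321) and was lost when any of the 7 other libraries was left out (0.0609 to 0.183). A gene-level FPKM does not resolve the floxed part.

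Of the 43 collagens, 19 had a mean of at least 1 rescaled FPKM and were tested, 6 fibrillar, 5 basement membrane and 8 other. Col8a1 lay just inside this minimum with a mean of 1.01, and Col12a1 just outside with 0.666. Col6a5 and Col8a1 passed only through the labelled libraries, since their control means were 0.647 and 0.218, so their differences were partly built in. Log2 fold changes are differences of log2(rescaled FPKM + 1), labelled minus control, which understate changes of low genes. No collagen passed an adjusted p of 0.05 in limma, where 49 of 11860 genes (0.413%) did, 26 higher (0.219%) and 23 lower (0.194%), and the lowest adjusted p was 0.0832, for Col5a3. At an unadjusted p under 0.05, 15 of the 19 were higher and 0 lower, against 30.1% of all tested genes in either direction, 17.9% higher and 12.2% lower. In 8 of the 19 every labelled library lay above every control, against 10.9% of all tested genes, and in 0 of 19 below, against 7.62%. The log2 fold change was positive for 18 of 19, against 57.9% of tested genes. The median over the 19 was 0.89, against 0.10 over all genes tested. Over the 17 collagens with a control mean of at least 1, 14 were higher at an unadjusted p under 0.05 (15.4% of the 10588 genes with such a control mean), 8 were higher without overlap (9.27%) and 16 had a positive log2 fold change (52.8%). Their median was 0.88, against 0.03 over those genes.

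The 4 labelled libraries did not contribute alike. Labelled libraries 1 and 3 each lay above every control in 18 of the 19 tested collagens, labelled library 2 in 14 and labelled library 4 in 13. In 17 of the 19 both labelled libraries 1 and 3 lay above labelled libraries 2 and 4, the exceptions being Col7a1 and Col6a5. Among the controls, control 1 was the highest in 13 of 19, including all 6 tested fibrillar chains. The shares of all tested genes with these patterns were not counted, and the 19 include Col6a5 and Col8a1. Over the 17 with a control mean of at least 1, the median log2 difference from the control mean was 1.27, 0.42, 1.50 and 0.47 in labelled libraries 1 to 4. Over all genes with such a control mean it was 0.07, -0.06, 0.10 and 0.02. Leaving out labelled library 4 turned 9 collagens into calls of a rise (Col1a1, Col5a2, Col5a3, Col15a1, Col18a1, Col6a1, Col6a2, Col6a3 and Col14a1; limma adjusted p = 0.0356 to 0.0471). In that fit 1366 of all genes were called higher, 11.5%, and 1200 lower, 10.1%. Leaving out any other library gave 0 collagen calls.

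**Figure D2:**
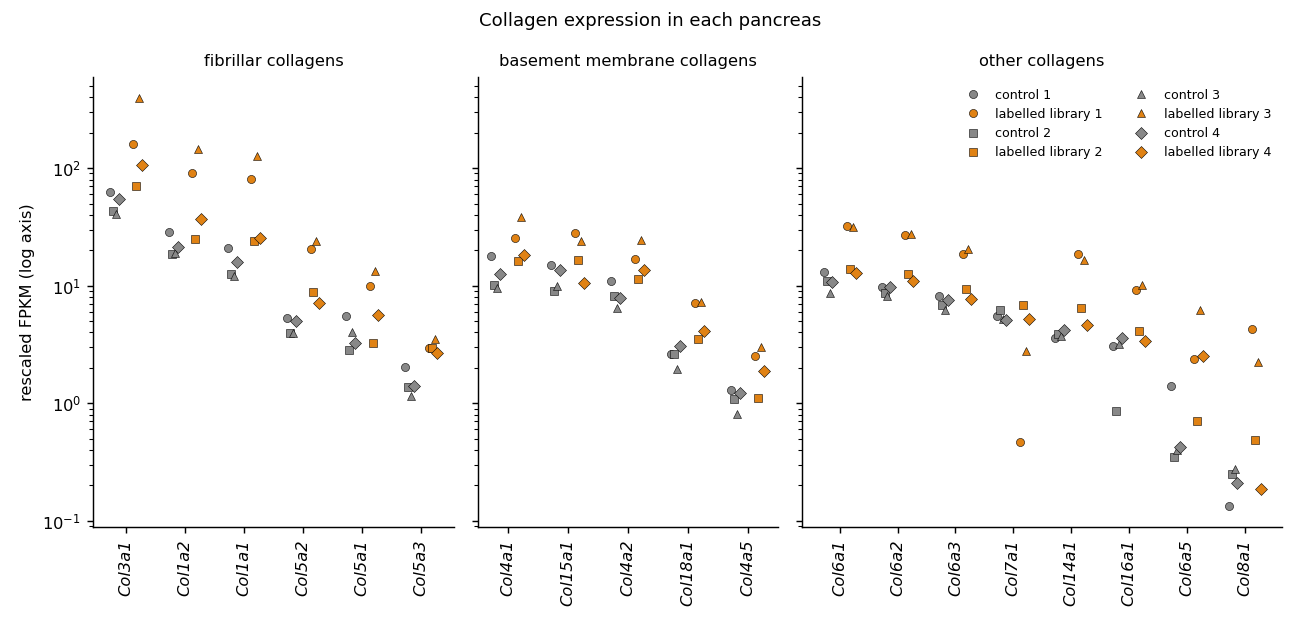
Each point is the level of a tested collagen in 1 library, as rescaled FPKM on a log axis, for the 19 tested members ordered by control mean within each class, with grey for the 4 controls and orange for the 4 labelled libraries; symbol shapes only number the libraries and pair none. Labelled libraries 1 and 3 sit highest for most members, and Col7a1 is the member where they sit lowest.

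Fibrillar collagens made up most of the collagen signal and had the highest median log2 fold change of the 3 classes in every setting run. That median was 1.40 (range 0.69 to 1.68 over 6 members), with 5 of 6 higher at an unadjusted p under 0.05 (17.9% of all tested genes) and 4 of 6 higher without overlap (10.9%). Per library the median difference from the control mean was 1.82, 0.57, 2.43 and 0.64 in labelled libraries 1 to 4. Against the median of all genes, fibrillar collagens stayed 1.26 to 1.59 higher on the log2 scale under the 4 other scalings, against 1.30 as deposited.

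Col3a1 (ENSMUSG00000026043, mm9 chromosome 1, 45368383 to 45406551), the homotrimeric collagen III of loose stroma, was the most abundant collagen. It stood at 62.6, 42.9, 41.0 and 54.6 rescaled FPKM in controls 1 to 4 and at 161, 70.1, 398 and 106 in labelled libraries 1 to 4. Every labelled library lay above every control, labelled library 3 by far the highest. The means were 50.3 ± 10.2 and 184 ± 148 (SD, n = 4 each; log2 fold change 1.56, SE 0.50, limma adjusted p = 0.114). Col1a1 (ENSMUSG00000001506, chromosome 11, 94797538 to 94814356), the major chain of collagen I, stood at 20.95, 12.6, 11.97 and 15.9 in the controls and at 81.2, 23.9, 128 and 25.3 in the labelled libraries. The groups did not overlap, although labelled libraries 2 and 4 lay close to control 1. Its log2 fold change of 1.68 (SE 0.54, adjusted p = 0.115) was the largest of the 17 collagens with a control mean of at least 1. That rank depended on the setting. Col3a1 passed it with a pseudocount of 5 (1.494 against 1.488) and after quantile normalization (2.03 against 1.91). It also did so without labelled library 1 (1.52 against 1.45) and among BKD titles (1.583 against 1.572). Without labelled libraries 1 and 3, Col3a1 (0.787) and Col5a2 (0.685) both passed Col1a1 (0.678). Among ASK and BSH titles Col5a2 passed it (0.89 against 0.79). The predicted gene Gm17329 overlaps Col1a1 by 1152 bases and ranged from 0 to 71.3 between libraries, so fragments may have been shared between both entries.

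Col1a2 (ENSMUSG00000029661, chromosome 6, 4454814 to 4491543) encodes the partner chain of collagen I. It stood at 28.7, 18.7, 18.9 and 21.3 in the controls and at 90.8, 25.1, 145 and 36.8 in the labelled libraries. Labelled library 2 lay below control 1, so the groups overlapped (log2 fold change 1.42, SE 0.52, limma adjusted p = 0.130). Collagen V nucleates collagen I fibrils, and its 3 chains were all tested. Col5a2 (chromosome 1, 45431166 to 45560127, 24614 bases from Col3a1 and tail to tail with it) stood at 5.29, 3.98, 3.99 and 4.99 in the controls and at 20.6, 8.81, 24.0 and 7.07 in the labelled libraries. All 4 labelled libraries were above the controls, with labelled library 4 nearest to them (log2 1.38, SE 0.37, adjusted p = 0.103). Col5a1 stood at 5.48, 2.84, 4.01 and 3.28 and at 9.96, 3.23, 13.5 and 5.63. Labelled library 2 was within the control range, and the log2 fold change was 0.77 (SE 0.37, adjusted p = 0.196). Col5a3 (ENSMUSG00000004098, chromosome 9, 20574494 to 20619511) stood at 2.05, 1.38, 1.16 and 1.39 and at 2.95, 2.94, 3.50 and 2.67. Relative to their mean its labelled values were the most even of the 19, with a mean of 3.02 ± 0.35 against 1.50 ± 0.38 (SD, n = 4 each; log2 0.69, SE 0.14, adjusted p = 0.0832).

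The 5 fibrillar members under the minimum stayed low. Col2a1, the cartilage collagen, was listed at 0 in all 8 libraries. Col11a1, Col11a2, Col24a1 and Col27a1 reached at most 0.822, and 3 of these 4 were listed at 0 in some libraries. Col27a1 stood at 0.0896 to 0.328 in the controls and at 0.793, 0.471, 0.532 and 0.141 in the labelled libraries, with overlap.

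**Figure D3:**
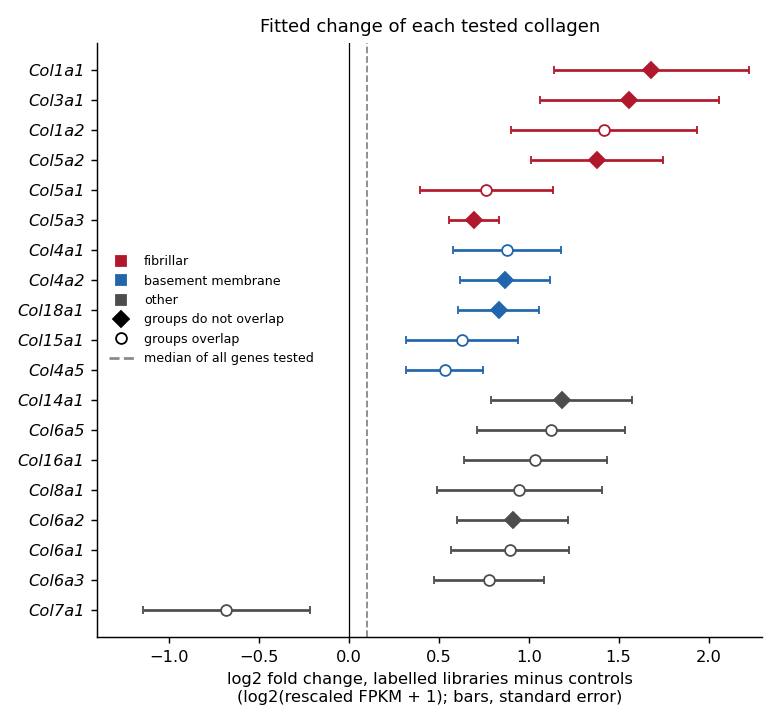
Points are the fitted log2 fold changes of the 19 tested collagens, labelled libraries minus controls, with standard errors as bars and the median of all 11860 genes as a dashed line; filled diamonds mark the 8 whose groups do not overlap. Fibrillar chains reach from 0.69 to 1.68, basement membrane chains from 0.53 to 0.88, and Col7a1 alone lies below 0, at -0.68.

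Basement membrane collagens had fitted differences in a narrower range. Their median log2 fold change was 0.83 (range 0.53 to 0.88 over 5 members), with 4 of 5 higher at an unadjusted p under 0.05 and 2 of 5 higher without overlap, against the same 17.9% and 10.9%. The difference between the fibrillar and the basement membrane median was not tested. Col4a1 (ENSMUSG00000031502, chromosome 8, 11198423 to 11312826) and Col4a2 (ENSMUSG00000031503, 11312805 to 11449287) encode the chains found in nearly all basement membranes and overlap head to head by 22 bases. Col4a1 stood at 17.8, 10.2, 9.55 and 12.5 in the controls and at 25.2, 16.4, 38.3 and 18.3 in the labelled libraries. Only labelled library 2 was within the control range (log2 0.88, SE 0.30, limma adjusted p = 0.122). Col4a2 stood at 11.0, 8.18, 6.43 and 7.90 and at 16.9, 11.3, 24.3 and 13.5. Its groups did not overlap, though labelled library 2 was only just above control 1 (log2 0.87, SE 0.25, adjusted p = 0.106). Within each library Col4a1 was 1.25 to 1.62 times Col4a2 in controls and 1.35 to 1.58 times in labelled libraries.

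Col18a1, the proteoglycan chain that releases endostatin, stood at 2.60, 2.61, 1.96 and 3.04 in the controls and at 7.12, 3.55, 7.33 and 4.10 in the labelled libraries. Every labelled library was above every control (log2 0.83, SE 0.22, limma adjusted p = 0.103). Slc19a1, on the opposite strand, overlaps it by 8825 bases, and the counting is not stated to use strand. Col15a1, the related chain of vessels and muscle, stood at 15.0, 8.95, 9.91 and 13.6 and at 28.2, 16.4, 23.9 and 10.5. Labelled library 4 lay within the control range (log2 0.63, SE 0.31, adjusted p = 0.201). Col4a5, on the X chromosome (137909928 to 138123778), stood at 1.30, 1.09, 0.816 and 1.22 and at 2.50, 1.10, 3.01 and 1.90, with labelled library 2 inside the control range (log2 0.53, SE 0.21, adjusted p = 0.147). The other 3 collagen IV chains were low, at 0.0440 to 0.774 in every library. Col4a3 lies 71 bases from Col4a4 and Col4a5 1308 bases from Col4a6, both head to head. Col4a5 lay above its neighbour Col4a6 in every library, since Col4a6 reached at most 0.316 among controls and 0.774 among labelled libraries.

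Among the other collagens, the beaded filament chains of collagen VI and the fibril-associated collagens XIV and XVI had positive log2 fold changes and Col7a1 a negative one, none of which passed the test. The median log2 fold change was 0.93 over 8 members and 0.90 over the 6 with a control mean of at least 1 (range -0.68 to 1.18). Of these 6, 5 were higher at an unadjusted p under 0.05 (15.4% of genes with such a control mean) and 2 were higher without overlap (9.27%). Col6a1, Col6a2 and Col6a3 form the classical collagen VI heterotrimer around cells. Col6a1 stood at 13.0, 10.9, 8.65 and 10.8 in the controls and at 32.4, 13.9, 31.7 and 12.9 in the labelled libraries. Labelled library 4 was just under control 1 (log2 0.89, SE 0.33, limma adjusted p = 0.130). Col6a2 stood at 9.72, 8.73, 8.16 and 9.76 and at 27.0, 12.5, 27.4 and 11.0. Its groups did not overlap, with labelled libraries 1 and 3 well above 2 and 4 (log2 0.91, SE 0.31, adjusted p = 0.120). Col6a3 stood at 8.10, 6.87, 6.20 and 7.54 and at 18.6, 9.41, 20.7 and 7.65. It had the same order, but labelled library 4 lay within the control range (log2 0.78, SE 0.31, adjusted p = 0.141). Col6a3 was 0.760 to 0.833 times Col6a2 in the controls and 0.691 to 0.755 times in the labelled libraries.

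Col14a1, a fibril-associated collagen of mature stroma, stood at 3.58, 3.86, 3.72 and 4.19 in the controls and at 18.7, 6.46, 16.6 and 4.61 in the labelled libraries. The controls were within 1 unit of each other and every labelled library was above them, labelled library 4 by little (log2 1.18, SE 0.39, limma adjusted p = 0.118). Col16a1, another fibril-associated chain, stood at 3.06, 0.866, 3.22 and 3.56 and at 9.28, 4.12, 10.2 and 3.37. Control 2 lay far below the other controls, and labelled library 4 lay among them (log2 1.04, SE 0.40, adjusted p = 0.138). Its deposited intervals had the widths that 0.992 to 55.2 counted fragments would give, the lowest such numbers among the tested collagens. Col6a5, an alternative collagen VI chain, stood at 1.41, 0.351, 0.398 and 0.426 and at 2.40, 0.710, 6.16 and 2.54 (log2 1.13, SE 0.41, adjusted p = 0.130). Labelled library 2 lay below control 1, and control 1 stood apart from the other controls. Col8a1, a short-chain collagen of vessels and remodelled matrix, stood at 0.133, 0.252, 0.275 and 0.210 and at 4.27, 0.491, 2.23 and 0.188. It was high in labelled libraries 1 and 3 and at control level in labelled library 4 (log2 0.95, SE 0.46, adjusted p = 0.195).

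Col7a1 (ENSMUSG00000025650, chromosome 9, 108855631 to 108886920), the anchoring fibril collagen made mainly by epithelia, went the other way. It stood at 5.48, 6.15, 5.25 and 5.14 rescaled FPKM in controls 1 to 4 and at 0.464, 6.79, 2.78 and 5.23 in labelled libraries 1 to 4. Labelled libraries 1 and 3 were below every control and labelled library 2 was above them all, so the groups overlapped. The log2 fold change was -0.68 (SE 0.46, limma adjusted p = 0.326), and its sign was positive when libraries were scaled to their implied fragment totals (0.29). Without labelled libraries 1 and 3 it was 0.10. The summed acinar markers, 214807 to 299042 in the controls, were 1084, 109637, 15014 and 133019 in labelled libraries 1 to 4, lowest in the same libraries as Col7a1. The part of acinar RNA in the Col7a1 values was not tested. The intervals of Col7a1 had the widths that 3.59 to 55.4 fragments would give.

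Of the 24 other collagens, 16 were under the minimum. Col9a1 was listed at 0 in all 8 libraries, 8 more were listed at 0 in some, and no value passed 2.27. Col28a1, a chain of peripheral nerve and skin, stood at 0.0522, 0, 0.0235 and 0.0334 in the controls and at 2.27, 0.119, 0.825 and 0.117 in the labelled libraries. All 4 labelled values were above the controls. Col6a4 stood at 0, 0.0132, 0 and 0.0102 and at 0.218, 0.0302, 0.719 and 0.520, also without overlap, and with interval widths worth at most 3.11 fragments. Col12a1, a fibril-associated collagen of loaded tissue, stood at 0.0741, 0.190, 0.615 and 0.508 and at 1.94, 0.237, 1.32 and 0.443, with labelled libraries 1 and 3 above all controls and the others among them. The transmembrane collagens Col13a1, Col17a1, Col23a1 and Col25a1 stayed at or below 0.462 in every library.

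The make-up of the summed collagen shifted towards fibrillar chains in 3 of the 4 labelled libraries. The sum over all 43 members came to 220.1, 156, 148 and 184 rescaled FPKM for controls 1 to 4 and 571, 240.2, 935 and 282 for labelled libraries 1 to 4. Every labelled sum was above every control sum. Fibrillar chains made up 57.0%, 53.4%, 54.8% and 55.3% of it in the controls and 64.4%, 56.1%, 76.3% and 65.2% in the labelled libraries, where labelled library 2 was inside the control range. Basement membrane chains made up 19.6% to 21.9% in the controls and 14.2%, 20.4%, 10.5% and 17.3% in the labelled libraries. Such ratios within a library do not change when each library is scaled by 1 factor, although quantile normalization can change them. Col1a1 was 1.18 to 1.27 times Col4a1 in the controls and 3.22, 1.46, 3.33 and 1.38 times in labelled libraries 1 to 4, all above the control range. Col3a1 was 3.52 to 4.36 times Col4a1 in the controls and 6.39, 4.28, 10.4 and 5.78 times in the labelled libraries. There labelled library 2 lay inside the control range. Col5a2 was 0.967 to 1.52 times Col5a1 in the controls and 2.07, 2.72, 1.78 and 1.25 times in the labelled libraries. Col3a1 per Col1a1, 2.99 to 3.43 in the controls, was lowest in labelled library 1 (1.98) and highest in labelled library 4 (4.19).

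**Figure D4:**
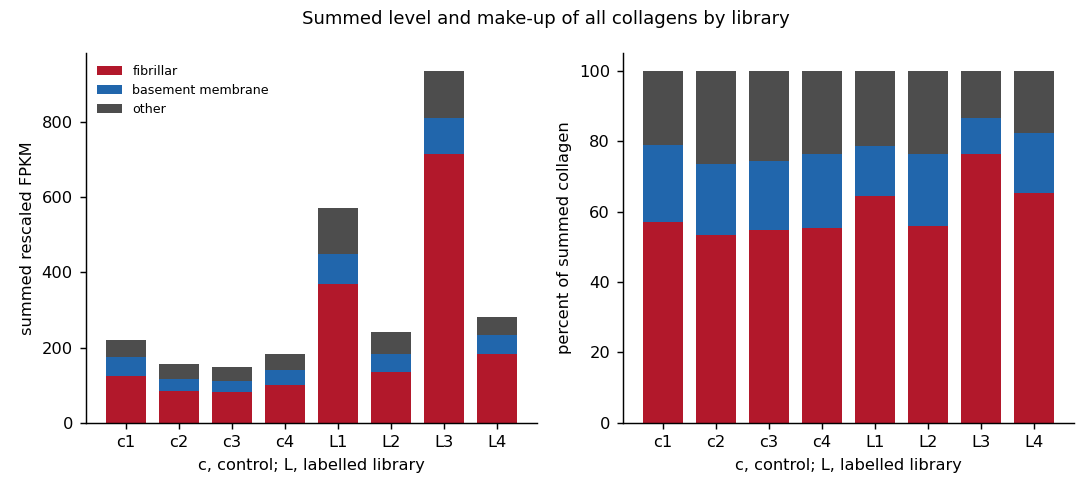
Stacked bars give, for each of the 8 libraries, the summed rescaled FPKM of the 43 collagens by class (left) and the same as percent of the sum (right), with c for control and L for labelled library. Sums run from 148 to 220.1 in the controls and from 240.2 to 935 in the labelled libraries, and the fibrillar share is highest in labelled library 3, at 76.3%.

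Several marker lists of the cells that pancreas holds were higher in the same libraries as the collagens. For comparison, 57.9% of all tested genes had a positive log2 fold change and 0.219% were called higher. Every labelled library lay above every control in 10.9% of them and below in 7.62%. Fibroblast and stellate cell markers (8 of 8 tested, all with positive log2 fold changes, 4 without overlap) summed to 124 to 163 in controls and to 456, 207, 458 and 173 in labelled libraries 1 to 4. The list of activated stellate cells and smooth muscle summed to 11.0 to 14.9 and to 44.8, 21.7, 60.0 and 18.5, with 4 of its 7 members tested. Both lists ordered the labelled libraries as most collagens did, with 1 and 3 above 2 and 4. The sums are unweighted, and Dcn alone stood at 70.1 to 82.9 in the controls and at 240, 106, 233 and 90.4 in the labelled libraries. Dcn and Lum of the first list and Postn of the second also count among the fibril-binding proteins below. Macrophage markers (6 of 6 positive, 4 without overlap) summed to 82.3 to 132 and to 656, 210, 546 and 173. Endothelial markers (7 tested, 4 positive, 1 below every control) summed to 34.9 to 44.7 and to 39.4, 34.2, 40.7 and 30.5. Duct markers (5 found, 4 tested, 2 positive) summed to 11.98 to 15.4 and to 45.3, 20.2, 46.0 and 13.8. Adipocyte markers (6 of 6 positive, 5 without overlap, 1 called higher in limma) summed to 71.9 to 214 and to 479, 416, 369 and 429, an order unlike that of the collagens. Lymphoid markers reached 166 in the controls and 392 in labelled library 3, where lymph node stroma also stood at 49.95 against at most 23.2 in the controls, and labelled library 4 had 56.1. Mesothelial markers summed to 7.42 to 14.7 and to 13.9, 16.0, 26.3 and 17.1, Schwann cell markers to at most 6.16, and islet markers to 533 to 1410 in controls against 5627, 1414, 885 and 729. Of the 8 acinar markers, 6 lay below every control in all labelled libraries. No marker of these lists was at 0 everywhere. In whole tissue more cells of a type and more RNA per cell cannot be told apart, and the part of each cell type in the collagen values was not tested.

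The genes that make, process, bind and degrade collagen were mostly higher in the same libraries. Of 87 such genes tested, 0 passed an adjusted p of 0.05 in limma (lowest 0.0885, Lama4). At an unadjusted p under 0.05, 46 were higher and 3 lower, against 17.9% and 12.2% of all genes tested. In 28 every labelled library was above every control and in 1 below, against 10.9% and 7.62% of all genes tested. Without labelled library 4, 38 were called higher and 2 lower, against 11.5% and 10.1% of all genes in that fit. The median log2 fold change of the 87 was 0.68. The 87 include 9 genes with a control mean under 1, which passed the minimum only through the labelled libraries. Of the other 78, 40 were higher at an unadjusted p under 0.05 and 3 lower, against 15.4% and 13.7% of genes with such a control mean. In 25 of the 78 every labelled library was above every control and in 1 below, against 9.27% and 8.54%, and their median was 0.63. These lists came from textbook knowledge, with earlier results of these data known.

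Chain modification and folding had the smallest median, 0.38 over 16 genes and 0.34 over the 14 with a control mean of at least 1. Serpinh1, the collagen chaperone HSP47, stood at 12.1, 10.6, 12.2 and 15.8 in the controls and at 32.0, 16.5, 42.4 and 23.8 in the labelled libraries, without overlap (log2 1.05, SE 0.28, limma adjusted p = 0.103). Leprel2 and Lepre1, prolyl 3-hydroxylases, had log2 fold changes of 0.52 and 0.73. Ppib, a prolyl isomerase of the endoplasmic reticulum, stood at 161, 139, 142 and 120.3 and at 26.9, 96.0, 43.0 and 130.6 (log2 -1.16, SE 0.47, adjusted p = 0.150). It was low in the labelled libraries where the acinar markers were lowest. The propeptide list had a median of 1.01 over 4 genes. Pcolce, which enhances procollagen C-proteinase, stood at 9.76 to 12.8 and at 31.1, 18.3, 38.5 and 13.5. The proteinase Bmp1 stood at 1.65 to 2.87 and at 8.59, 2.95, 9.16 and 3.44. Neither overlapped between the groups. Adamts2 and Pcolce2 had log2 fold changes of 1.11 and 0.24, with overlap.

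Crosslinking enzymes had a median of 0.58 over 5 genes. Lox, lysyl oxidase, stood at 1.73, 1.18, 0.547 and 1.13 in the controls and at 9.46, 2.03, 9.14 and 1.732 in the labelled libraries. The groups met at about 1.73, where control 1 and labelled library 4 almost coincided (log2 1.37, SE 0.48, limma adjusted p = 0.124). Loxl1, Loxl2 and Tgm2 had log2 fold changes of 1.14, 0.58 and 0.43, all with overlap. Fibril-binding proteins had the highest median, 1.18 over 12 genes. Postn, periostin, stood at 2.56 to 4.96 and at 24.7, 10.5, 36.8 and 6.13 (log2 1.89, SE 0.49, adjusted p = 0.102). Sparc, a collagen-binding matricellular protein, stood at 47.7 to 83.2 and at 218, 86.9, 295 and 122. Fibronectin (Fn1) stood at 12.5 to 21.2 and at 61.1, 24.7, 97.4 and 27.2. In these 3 genes no labelled library overlapped the controls, and Fmod, the small proteoglycan fibromodulin, did not overlap either (log2 0.80).

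Basement membrane partners had a median of 0.56 over 14 genes. Lama4, a laminin chain of vessels and stroma, stood at 2.97, 3.54, 2.16 and 3.14 in the controls and at 6.54, 4.78, 7.26 and 4.61 in the labelled libraries (log2 0.77, SE 0.18, limma adjusted p = 0.0885). Pxdn, which crosslinks collagen IV, stood at 0.888 to 1.64 and at 6.30, 2.19, 4.32 and 3.09. Lamb3, an epithelial laminin chain, stood at 10.3, 6.30, 5.07 and 4.79 and at 3.42, 2.998, 3.42 and 3.74, the reverse order without overlap (log2 -0.74, SE 0.21, adjusted p = 0.106). Nid2 had a log2 fold change of 0.47, without overlap. Collagen receptors had a median of 0.59 over 8 genes and 0.56 over the 7 with a control mean of at least 1. Cd44 stood at 1.10 to 2.93 and at 19.2, 3.39, 11.3 and 3.61. The collagen-activated kinase Ddr1 stood at 4.06 to 4.89 and at 9.26, 5.04, 14.3 and 6.50. Both were above every control in all labelled libraries, whereas Ddr2 (log2 0.62) and Itgb1 (log2 0.56) overlapped.

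Breakdown genes and their inhibitors had a median of 1.09 over 12 genes and 1.03 over the 8 with a control mean of at least 1. Timp1, Mmp3, Mmp11 and Mmp19 passed the minimum only through the labelled libraries, so their differences were partly built in. Mmp14, a membrane-bound collagenase, stood at 2.55 to 3.04 in the controls and at 21.8, 6.70, 14.3 and 4.60 in the labelled libraries (log2 1.58, SE 0.40, limma adjusted p = 0.101). Timp1, an inhibitor of these proteinases, stood at 0.560, 0.326, 0 and 0.500 and at 11.5, 1.62, 39.1 and 2.33. Timp2 stood at 16.9 to 21.3 and at 61.1, 29.1, 52.8 and 24.2. All 3 had groups without overlap. Mmp11, stromelysin 3, had a log2 fold change of 1.13 with overlap. The TGF-beta axis, which induces collagen transcription in fibroblasts, had a median of 0.64 over 16 genes. Over the 14 with a control mean of at least 1 it was 0.55. Tgfb1 stood at 1.61, 3.17, 1.47 and 2.38 and at 10.2, 3.52, 8.96 and 5.11 (log2 1.27, SE 0.31, adjusted p = 0.0974). The receptors Tgfbr1, Tgfbr2 and Tgfbr3 had log2 fold changes of 0.76, 1.06 and 0.68, each above every control in all labelled libraries. With Tgfb1 they were the only 4 of the 16 without overlap, against 10.9% of all tested genes higher without overlap. The rest overlapped, and 1 of the 16, Ltbp4, had a negative log2 fold change (-0.01).

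**Figure D5:**
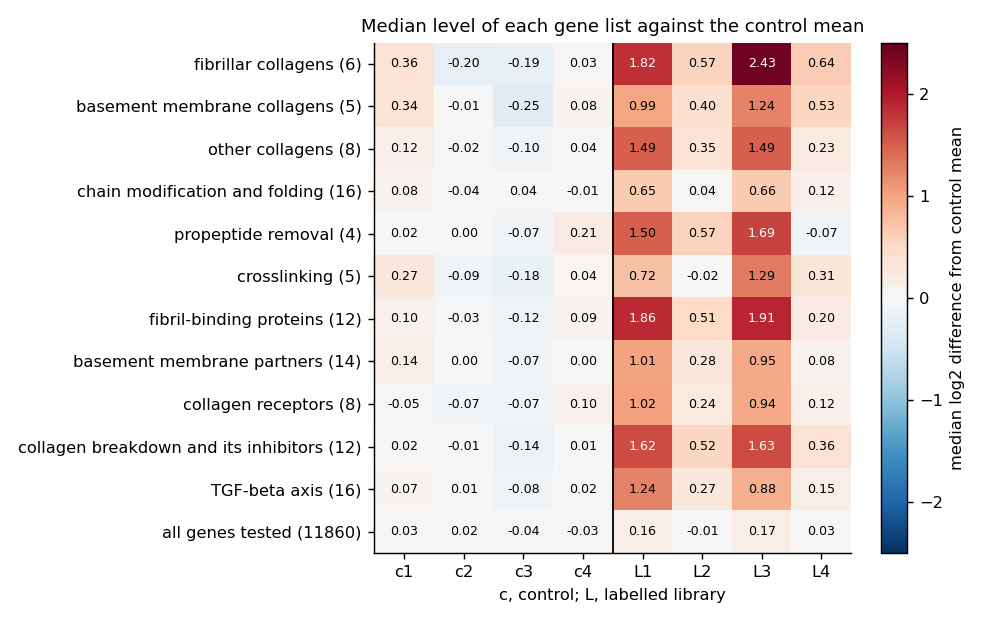
Cells give the median difference of each gene list from the control mean, on the log2(rescaled FPKM + 1) scale, for the 4 controls (c) and the 4 labelled libraries (L), with the number of tested genes in brackets. Labelled libraries 1 and 3 are highest in every collagen and partner list, with fibrillar collagens at 1.82 and 2.43, while all 11860 genes lie at 0.16 and 0.17.

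Within each title prefix the collagens were again higher on the whole, with smaller fibrillar and other medians among the ASK and BSH titles. The fibrillar median was 1.40 among the BKD titles (control 1 against labelled libraries 1, 3 and 4) and 0.69 among the ASK and BSH titles (controls 2 to 4 against labelled library 2). With BKD against the other titles as a covariate, which pools ASK with BSH, it was 0.99. The basement membrane median was 0.58, 0.54 and 0.55 in the same order, and the median of the other collagens 0.92, 0.42 and 0.67. In both comparisons 1 side was a lone library, whose spread was taken from the others. In the covariate fit 4 of the 19 collagens were higher at an unadjusted p under 0.05 in limma, against 8.90% of all tested genes. Among those of ASK and BSH, Col5a1 had a log2 fold change of -0.039. When labelled libraries 1 and 3 were left out, the medians came to 0.65, 0.45 and 0.32 for fibrillar, basement membrane and other collagens, with fibrillar collagens still the highest, and 8 of 19 were higher at an unadjusted p under 0.05, against 7.61% of all tested genes.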

How the data were processed

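Per the labels' protocols, poly(A) RNA of 8 whole pancreases (RNA integrity numbers 7.1 to 8.8) was made into TruSeq libraries with 8 PCR cycles and sequenced on a Genome Analyzer IIx. Tools named in the submitters' processing notes are Cufflinks 2.0.1, TopHat2 2.0.4, Bowtie and CASAVA 1.8, with the builds mm9 and NCBIM37. The sources used here do not give strand, read length, gene models or how FPKM were scaled. The authors deposited 1 table of gene FPKM per sample, with 36448 entries for 36432 gene IDs, and 14 IDs on more than 1 entry were summed. Values were divided by 100000 and not scaled further. Genes with the status HIDATA in any sample (8, no collagen) are listed at 0 there and were left out. Overlapping and near-identical genes have uncertain values, because Cufflinks splits their fragments by likelihood. Coordinates are those of the files with the start raised by 1.

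Genes with a mean of at least 1 (11860) were tested on log2(rescaled FPKM + 1) with limma 3.58.1 (R 4.3.3) and an intensity trend. Two-sided p-values were adjusted by Benjamini-Hochberg across the tested genes, and the threshold was 0.05. The tables hold no counts, so depth is described only through fragments implied by the interval widths. Such numbers treat the widths as counting error alone and are not counts. In labelled library 4, Col4a1 at 18.3 rescaled FPKM implied 1197 fragments and Col4a2 at 13.5 implied 87.7. Alternatives were 2 pseudocounts (0.1 and 5), no minimum or one of 5, 4 other scalings and 2 variance settings. Others were the title prefix (BKD against the rest) as covariate, BKD titles alone, ASK and BSH titles together, and libraries left out. Members with a control mean of at least 1 were added after the data were seen. Equal-sum scaling used annotated protein-coding genes outside the digestive enzymes. Values in every sample are given for the tested collagens of highest mean and those without overlap, and of each partner list the 4 genes of smallest unadjusted p were named; Col7a1, Col28a1, Col6a4, Col12a1 and Col27a1 were picked out with their values seen. Members and lists were chosen with earlier results of these data known.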

Additional observations from a re-analysis of the deposited data

Results flagged for a closer look

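In 40 groups of 4 libraries, 2 values lay further from the rest of their group than the 95% limit of Dixon's ratio for 4 values allows, where chance gives about 1 in 20 groups. Col16a1 in control 2 was 0.866 rescaled FPKM, against 3.06 to 3.56 in the other controls, a gap of 0.869 of the range. Col6a5 in control 1 was 1.41, against 0.351 to 0.426 in the other controls, a gap of 0.907 of the range.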

How the results depend on the processing

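No paired analysis was possible because the labels give the groups no shared replicate numbers. The 3 class medians were positive in every setting run. Of 410 values of the 19 tested collagens under 22 other settings, 397 kept their direction and side of the threshold, 9 passed it (without labelled library 4) and 4 changed sign: Col5a1 (-0.039) and Col7a1 (0.26) among the ASK and BSH titles, Col7a1 under the implied fragment totals (0.29) and with labelled libraries 1 and 3 left out (0.10). The cause was not tested.

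Counts of all genes called, 26 higher and 23 lower, moved most. Those higher numbered 14 with a pseudocount of 5, 12 after quantile normalization, 52 with equal sums, 6 with implied fragment totals, 4 with the prefix as covariate, 0 among BKD titles, 89 among ASK and BSH titles, and 11 when labelled libraries 1 and 3 were left out. Those lower numbered 11 without a minimum, 15 with a minimum of 5, 10 with equal sums, 0 with implied totals, 1 with the covariate, 2 among ASK and BSH titles and 2 when labelled libraries 1 and 3 were left out. Leaving out 1 library each gave 7 to 1366 higher and 3 to 1200 lower, 0 to 9 collagens and 0 to 38 partner genes higher, and 0 to 2 partner genes lower; each highest count came without labelled library 4. Collagens higher at an unadjusted p under 0.05, 15 as reported, then numbered 8 to 17, against 10.9% to 24.2% of all tested genes. Leaving out 1 library each moved the class medians to 1.04 to 1.69 (fibrillar), 0.65 to 0.99 (basement membrane) and 0.71 to 1.12 (other).

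Without an expression minimum, which adds low members, the medians were 0.73, 0.58 and 0.24. With implied fragment totals they were 2.68, 1.93 and 1.92, where the median of all genes, 0.10 as deposited, was 1.12. That median was 0.32 with equal sums, -0.13 with a minimum of 5, -0.047 with median-ratio scaling, -0.035 after quantile normalization and 0 among ASK and BSH titles.

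The Gata6 call was lost, with a positive log2 fold change each time, with pseudocounts of 0.1 (0.90) and 5 (0.38), no minimum, no trend or robust variances (0.72 each), median-ratio (0.57), quantile (0.57) and implied-total scaling (1.79), the covariate (0.71), BKD (0.57) or ASK and BSH titles only (0.85), and with labelled libraries 1 and 3 left out (0.69); leaving out 1 library each gave 0.67 to 0.77. Depth is described only through interval widths, which do not give counts.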
